A study of Homo sapiens with 4 samples.

Results

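The SRF-MRTF and actomyosin contractility genes are 39 named genes that make, regulate or transcribe the contractile actin-myosin apparatus. They were taken as a fixed list of symbols and matched to the Ensembl gene identifiers of the deposited count table, which holds 60721 genes. All 39 had an entry there, and 38 also had a row in the authors' table of log2-transformed, library-scaled counts and passed the filter on low counts, among 16137 genes tested. MYH14 was the member left out, with 1 count over all libraries. The RNA came from Hs578T, an established human breast carcinoma line that the labels call epithelial. Both groups were transfected with GFP. The SCR group also received a non-targeting siRNA and the siTLN1 group an siRNA against TLN1, each at 1.6 µM, and RNA was collected at 48 h. Each group held 2 libraries of polyadenylated RNA described as biological replicates. The comparison rests on 1 cell line, and the labels do not say how many siRNA sequences were used.

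Talin-1, the product of TLN1, couples integrins to actin filaments that non-muscle myosin II pulls on. The transcription factor SRF binds the CArG box, a short DNA element with a core of A and T bases, together with its coactivators MRTFA and MRTFB. The MRTFs are held by monomeric actin in the cytoplasm and reach the nucleus when actin polymerises, so actin assembly feeds back on the genes of the contractile apparatus. ROCK kinases raise phosphorylation of the myosin light chain, and formins nucleate actin filaments.

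The promoter sequences of the members were searched for the CArG box, because that element is the DNA site of the factor that names the set. RefSeq promoter windows (GRCh38.p14, 250 bases before to 50 after the start site) were matched for 37 of the 39 members, all but TAGLN and MYL9. The box reads as the same pattern on both strands. It was present in 6 of the 37 windows (16.2%), against 351 of all 27305 windows (1.29%). The set was named for SRF, so this comparison is a description and not a test. In the lists of other pathway genes used below, the box was in 5 of 34 windows (14.7%) of other SRF-MRTF targets. It was in 0 of 23 windows of other myosin II regulators and 0 of 44 of other actin assembly genes. SRF itself held 2 boxes. Each site below is shown with up to 10 bases on either side, 5′ to 3′ on the strand of the gene, and the capitals mark the box.

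SRF, chr6:43171229-43171258, plus strand: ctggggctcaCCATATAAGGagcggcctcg
SRF, chr6:43171249-43171278, plus strand: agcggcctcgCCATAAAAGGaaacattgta
CNN2, chr19:1026509-1026538, plus strand: cgcctccaggCCTTATAAGGacatttgcgc
TPM4, chr19:16067355-16067384, plus strand: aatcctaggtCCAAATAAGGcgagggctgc
FLNA, chrX:154374709-154374738, minus strand: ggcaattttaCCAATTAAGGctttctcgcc
MYLK (internal start), chr3:123620623-123620652, minus strand: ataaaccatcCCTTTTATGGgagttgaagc
ROCK2, chr2:11345491-11345520, minus strand: aaatgtacttCCTTAAATGGgtttactggg

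The boxes of SRF began 30 and 10 bases before the start site. Those of the other 5 genes began between 173 bases (TPM4) and 73 bases (ROCK2) before the start site used for their RefSeq window. For MYLK that start lies 263.78 kb inside the gene as annotated in the count table, far from its 5′ end, so this box is not at the start of the full-length kinase transcript. The starts of the other 5 genes with a box lay within 10 kb of the annotated 5′ end, as did 33 of all 37. A match is a description of these letters and does not show that SRF binds there. The 6 members with a box had a median log2 fold change between siTLN1 and SCR of −0.025, with 1 above 0 and 5 below. Without MYLK the median of the other 5 was −0.0025, a choice made after its position was seen. The 30 matched and tested members without one had a median of −0.0019. Over the tested genes with a matched window, the medians were −0.0023 for the 127 with a box and 0.0026 for the 11238 without.

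The column headers of the count table give 1 number to a library of each group (library a) and another number to the other library of each group (library b), without saying what the numbers mark, and values are given below in the order a, b. Total counts ran from 31854322 to 46353297 per library, and at least 99.9% of them lay in tested genes. TLN1 had 868 and 874 CPM (counts relative to library size, scaled by TMM, a correction for differences in RNA composition) in SCR against 51.9 and 44.8 CPM in siTLN1, so the target was low in both libraries labelled siTLN1. Of 6 epithelial markers examined, EPCAM, CDH1, KRT5 and KRT19 had at most 40 counts in any library, whereas KRT18 reached 104 to 131 CPM and KRT8 15.1 to 20.7 CPM. Of 5 mesenchymal markers, CDH2 (N-cadherin) fell by 0.89 on the log2 scale, from 569 and 535 CPM in SCR to 303 and 293 CPM in siTLN1 (adjusted p 2.45e-05), and the other 4 did not pass. VIM lay at 3811 to 3968 CPM and FN1 at 23553 to 32369 CPM. Immune markers were at or near 0, with at most 20 counts for PTPRC and 0 for CD3E and LYZ.

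None of the 38 tested members passed an adjusted p of 0.05 between siTLN1 and SCR when edgeR's quasi-likelihood p was adjusted by Benjamini-Hochberg over all 16137 genes, of which 6.07% passed. At an unadjusted p under 0.05 the count was 5 of 38, against 19.8% of all genes, and DESeq2 and limma-voom each gave 0 calls with 5 at that unadjusted level. None of these 3 fits includes a replicate block, and the count of called members changes with that choice. With a replicate block in limma-trend on the authors' log2 CPM values, 10 of the 38 members passed, against 22.6% of all tested genes. The labels do not state that the replicate numbers pair the samples, as described among the processing alternatives. The smallest adjusted p among the members was 0.121. Of the 38 log2 fold changes, 16 were above 0 and 22 below, with a median of −0.018 and a range from −0.22 (TPM1) to 0.27 (LIMK2). The median over all tested genes was 0.0033. Summed, the 38 members took 2.78% and 2.82% of the scaled counts for SCR, and 2.79% and 2.69% for siTLN1.

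The intervals come from the edgeR fit without a replicate block and bound, within that fit, how large a difference could have gone unseen. Each of the 38 members had a 95% interval inside ±0.5 on the log2 scale, a 1.41-fold change either way, compared with 53.8% of all tested genes and 86.2% of the 5699 genes at the same levels (32.97 to 5950 CPM). The lowest bound was −0.44 for MYLK and the highest was 0.48 for LIMK2. Among the 466 genes called at those levels, the smallest log2 fold change had a size of 0.32, and every member lay below it in size. The intervals are per gene, are not adjusted for the number of members, and use a spread shared across genes because each group has 2 libraries. In bulk RNA, fewer cells of a kind and less RNA per cell cannot be told apart.

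**Figure D1:**
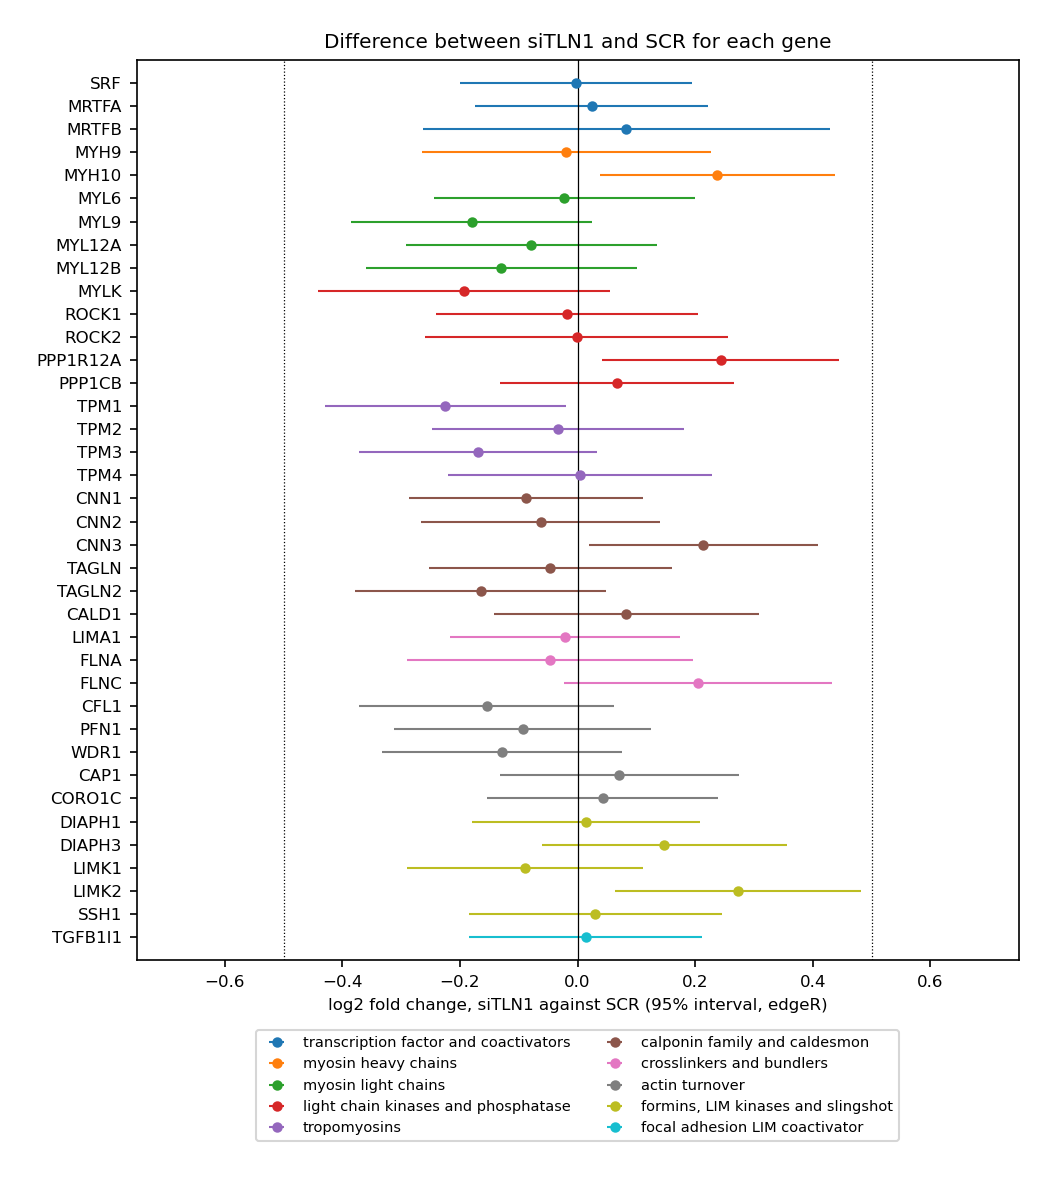
Log2 fold change of siTLN1 against SCR for each of the 38 tested genes (points) with its 95% interval from edgeR (bars), coloured by role; dotted lines stand at ±0.5. All intervals lie between −0.44 and 0.48, and those of LIMK2, PPP1R12A, MYH10, CNN3 and TPM1 do not include 0 before adjustment.

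**Figure D2:**
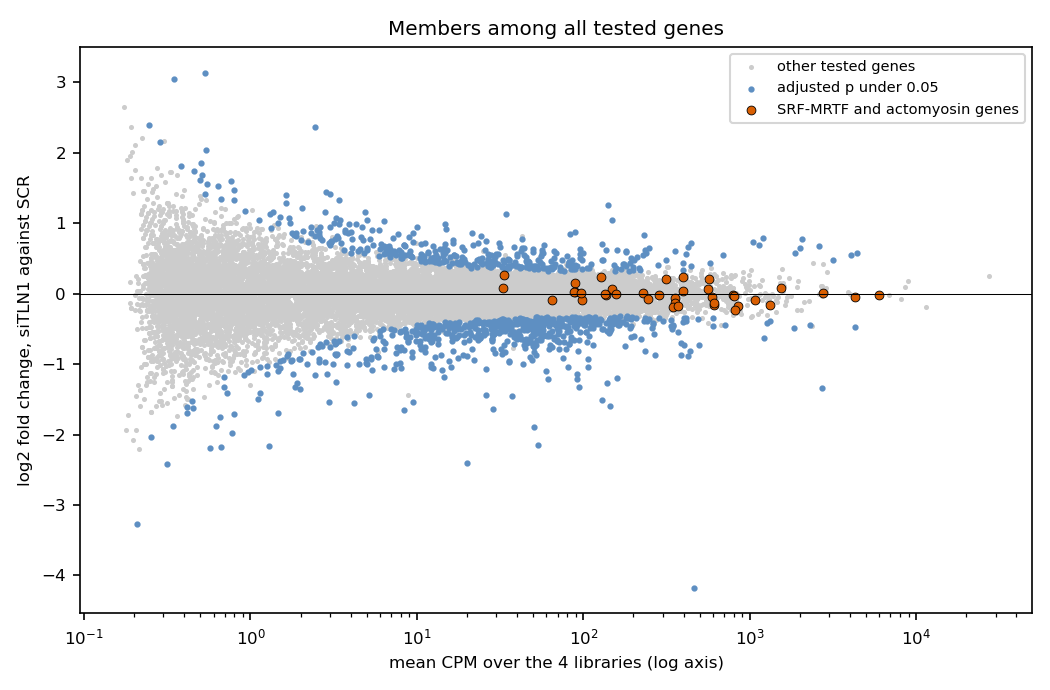
Log2 fold change against mean CPM (log axis) for all 16137 tested genes, with the 980 genes at an adjusted p under 0.05 in blue and the 38 members in orange. The members lie in the upper part of the expression range and inside the grey band of genes that did not pass.

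The transcription factor and its coactivators differed between groups by less than the spread of their libraries. SRF had 131 and 139 CPM in SCR and 129 and 140 CPM in siTLN1, a log2 fold change of −0.0025 (95% interval −0.20 to 0.20). MRTFA had 84.4 and 92.4 CPM against 89.0 and 90.7 CPM, a log2 fold change of 0.024. MRTFB had 36.2 and 27.8 CPM against 39.1 and 28.8 CPM. The groups overlapped for all 3 genes, and for each gene the gap between the libraries of either group was wider than the gap between the group means. The interval of MRTFB (−0.26 to 0.43) was the widest among the members.

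Non-muscle myosin II hexamers are built on the heavy chains of MYH9, MYH10 and MYH14. MYH9 (non-muscle myosin IIA) ranked 7 among all tested genes by CPM. Its libraries held 5906 and 6072 CPM in SCR and 6240 and 5583 CPM in siTLN1, so the siTLN1 libraries lay on either side of the SCR pair. MYH10 (non-muscle myosin IIB; ENSG00000133026.12, GRCh38, chromosome 17, 8474205 to 8630761, minus strand) had 364 and 361 CPM in SCR and 444 and 411 CPM in siTLN1. Both siTLN1 libraries of MYH10 were above both SCR libraries. The log2 fold change of MYH10 was 0.24 (95% interval 0.038 to 0.44), with an unadjusted p of 0.0225 and an adjusted p of 0.161. MYH14 (non-muscle myosin IIC) had 1 count in an SCR library and 0 in the other 3, where 3 counts would correspond to 0.0638 to 0.0944 CPM.

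The light chains all had log2 fold changes below 0 in the reported fit, and none passed the test there. Only MYL9 among them kept its direction with each library left out. MYL6, the essential light chain, had 761 and 839 CPM in SCR and 735 and 841 CPM in siTLN1. MYL9, MYL12A and MYL12B encode regulatory light chains, the subunits whose phosphorylation switches the motor on. MYL9 (ENSG00000101335.10, chromosome 20, 36541497 to 36551447, plus strand) had 903 and 901 CPM in SCR and 806 and 788 CPM in siTLN1. Its groups did not overlap, but the log2 fold change of −0.18 (95% interval −0.38 to 0.025) had an adjusted p of 0.328. MYL12A had 241 and 258 CPM against 217 and 256 CPM, and MYL12B 350 and 391 CPM against 305 and 372 CPM, both with overlapping groups. MYL12A and MYL12B are close copies, so reads that fit both would be left out of the counts of each, and their levels are uncertain.

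None of the enzymes that set light chain phosphorylation passed the test in the reported fit. Only MYLK and PPP1R12A among them kept their direction with each library left out. MYLK, the calcium-dependent light chain kinase, had 407 and 333 CPM in SCR and 352 and 296 CPM in siTLN1, with overlapping groups. Its log2 fold change of −0.19 (adjusted p 0.395) went from −0.041 without SCR library a to −0.33 without SCR library b. Compared within libraries a and within libraries b, the log2 difference between siTLN1 and SCR was −0.21 and −0.17. Library a lay above library b in both groups, by 0.29 in SCR and 0.25 in siTLN1 on the log2 scale. ROCK1 had 149 and 128 CPM against 147 and 126 CPM. ROCK2 had 173 and 141 CPM against 173 and 141 CPM, the smallest fold change of the set at −0.0017. PPP1R12A (ENSG00000058272.19, chromosome 12, 79773563 to 79935460, minus strand) encodes MYPT1, the subunit that directs myosin phosphatase to its substrate. It had 121 and 113 CPM in SCR and 146 and 131 CPM in siTLN1. Both siTLN1 libraries were above both SCR libraries, with a log2 fold change of 0.24 (95% interval 0.041 to 0.45), an unadjusted p of 0.0212 and an adjusted p of 0.157. The catalytic subunit gene PPP1CB had 153 and 139 CPM against 157 and 149 CPM, with overlapping groups.

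Tropomyosins wrap actin filaments and set which myosins and severing factors can bind. TPM1 (ENSG00000140416.22, chromosome 15, 63042632 to 63071915, plus strand) had 880 and 883 CPM in SCR and 739 and 769 CPM in siTLN1. It was the lowest log2 fold change of the set at −0.22 (95% interval −0.43 to −0.020), with an unadjusted p of 0.0336 and an adjusted p of 0.202. Both siTLN1 libraries were below both SCR libraries. TPM3 had 399 and 384 CPM against 332 and 365 CPM, also without overlap, and a log2 fold change of −0.17 (adjusted p 0.354). TPM4 had 2750 and 2715 CPM against 2681 and 2800 CPM, and TPM2 764 and 860 CPM against 777 and 811 CPM, with overlapping groups in both. The counts are per gene, so the many splice isoforms of these genes could not be separated.

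Calponins, transgelins and caldesmon bind along actin filaments and damp or tune contraction, and several of them are standard SRF targets in smooth muscle. CNN3 (acidic calponin; ENSG00000117519.16, chromosome 1, 94896949 to 94927223, minus strand) had 291 and 288 CPM in SCR and 327 and 344 CPM in siTLN1. Both siTLN1 libraries lay above both SCR libraries, with a log2 fold change of 0.21 (95% interval 0.019 to 0.41), an unadjusted p of 0.0336 and an adjusted p of 0.202. CNN1, the smooth muscle calponin, had 66.8 and 67.0 CPM against 60.9 and 65.0 CPM. CNN2 had 343 and 383 CPM against 342 and 354 CPM. The groups of CNN1 did not overlap and those of CNN2 did, with log2 fold changes of −0.087 and −0.063. TAGLN, the transgelin used as an SRF reporter gene, had 632 and 578 CPM against 598 and 574 CPM, and its groups overlapped. TAGLN2 had 625 and 672 CPM against 545 and 613 CPM, without overlap and with a log2 fold change of −0.16 (adjusted p 0.401). CALD1 (caldesmon) had 1522 and 1458 CPM against 1681 and 1476 CPM, with overlapping groups.

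FLNA and FLNC encode filamins that crosslink actin filaments, and LIMA1 encodes the bundling protein EPLIN. FLNA was the second most abundant member by CPM, with 4261 and 4420 CPM in SCR and 4503 and 3902 CPM in siTLN1 on either side. FLNC had 523 and 534 CPM in SCR and 672 and 547 CPM in siTLN1. Its groups did not overlap, but siTLN1 library a carried most of the difference, and the log2 fold change was 0.21 (95% interval −0.023 to 0.43, adjusted p 0.313). LIMA1 had 287 and 290 CPM against 274 and 295 CPM, with overlapping groups.

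The genes of actin filament turnover were abundant and close between groups. CFL1 (cofilin-1, which severs filaments) had 1361 and 1437 CPM in SCR and 1211 and 1304 CPM in siTLN1, without overlap, and a log2 fold change of −0.15 (adjusted p 0.445). WDR1 (AIP1, a cofilin partner) had 615 and 653 CPM against 564 and 595 CPM, also without overlap, and a log2 fold change of −0.13. PFN1 (profilin-1, which loads actin monomers onto growing ends) had 1060 and 1147 CPM against 983 and 1085 CPM, with overlapping groups. These 3 genes lay below 0, whereas the other 2 of this role lay above. CAP1, which recycles cofilin-bound monomers, had 562 and 530 CPM against 559 and 587 CPM. CORO1C (coronin-1C) had 401 and 385 CPM against 402 and 409 CPM, and its groups were separated by under 1 CPM.

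Formins and the kinases and phosphatase of cofilin act on actin assembly and filament severing. LIMK2 (LIM kinase 2, which phosphorylates cofilin; ENSG00000182541.18, chromosome 22, 31212239 to 31280080, plus strand) had 29.4 and 30.7 CPM in SCR and 37.0 and 35.7 CPM in siTLN1. Both siTLN1 libraries were above both SCR libraries. Its log2 fold change of 0.27 (95% interval 0.064 to 0.48) was the highest of the set, with an unadjusted p of 0.0134 and an adjusted p of 0.121. Its paralog LIMK1 had 96.1 and 105 CPM against 91.1 and 97.9 CPM, with a log2 fold change of −0.090 and overlapping groups. DIAPH1 (the formin mDia1) had 233 and 222 CPM against 234 and 225 CPM. DIAPH3 (mDia2) had 89.8 and 78.8 CPM against 97.2 and 89.6 CPM, and SSH1 (slingshot-1, which dephosphorylates cofilin) had 93.0 and 80.5 CPM against 93.5 and 83.7 CPM. The groups of these 3 overlapped. TGFB1I1 (Hic-5, an LIM protein of focal adhesions and an MRTF target) had 91.5 and 101 CPM against 97.7 and 96.4 CPM, also overlapping.

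Counting separation alone gave 13 of the 38 members (34.2%) whose groups did not overlap, against 48.4% of all tested genes. The 6 members above were MYH10, PPP1R12A, CNN3, FLNC, CORO1C and LIMK2. The 7 below were MYL9, TPM1, TPM3, CNN1, TAGLN2, CFL1 and WDR1. The share of separated members was thus under the background share, and no role group held a called gene in the reported fit.

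**Figure D3:**
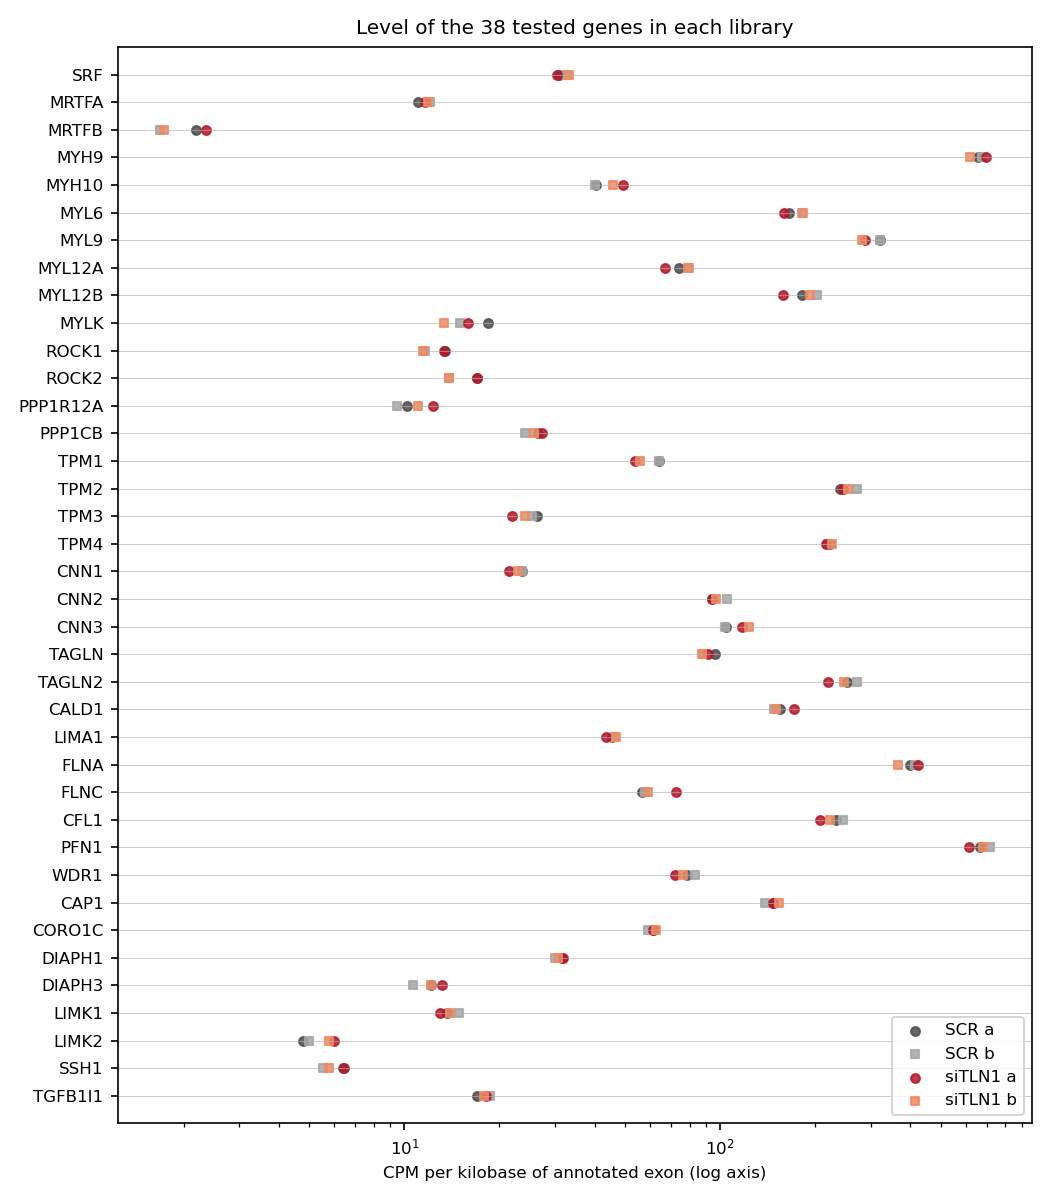
CPM per kilobase of annotated exon (log axis) of the 38 tested genes in each library; circles are libraries a and squares libraries b, grey for SCR and red or orange for siTLN1. MYH9 and PFN1 are the highest and MRTFB is the lowest, and the 4 libraries of a gene sit close together compared with the distances between genes.

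Levels between genes were compared as CPM per kilobase of annotated exon, a scale that understates genes with many annotated exons beyond their main transcript. On it PFN1 had a mean of 690 in SCR and 647 in siTLN1, and MYH9 665 and 656. FLNA followed with 408 and 395, then MYL9 with 321 and 284. The regulators were far lower. SRF had 31.8 in both groups, MRTFA 11.5 and 11.7, ROCK1 12.5 and 12.4, LIMK2 4.87 and 5.89, and MRTFB 1.93 and 2.05.

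Within families, the same scale gives each gene's share in a library, which does not depend on the library scaling. MYH9 made up 94.2% and 94.4% of the heavy chains in SCR and 93.4% and 93.1% in siTLN1. The remainder was MYH10, whose share was 5.71% ± 0.141 (SD, n = 2) in SCR and 6.75% ± 0.152 (SD, n = 2) in siTLN1. Heavy chain output was therefore dominated by 1 gene in every library. LIMK2 was 25.9% and 24.99% of the LIM kinases in SCR and 31.7% and 29.4% in siTLN1. CNN3 was 47.0% and 44.5% of the calponins in SCR and 50.4% and 50.7% in siTLN1, and CNN2 was 42.4% and 45.4% against 40.4% and 39.9%. Without division by length CNN2 was above CNN3 in both groups (50.5% against 40.2% in SCR, 46.6% against 44.9% in siTLN1), so their order depends on the scale. The shares of MYH10, LIMK2 and CNN3 were higher in both siTLN1 libraries than in both SCR libraries on either scale.

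Among tropomyosins TPM2 (45.1% in SCR, 45.5% in siTLN1) and TPM4 (39.1% and 40.4%) formed most of the family per kilobase. Without division by length TPM2 made up 16.9% and 17.1%, and TPM4 56.7% and 59.1%, so the order of TPM2 and TPM4 depends on the scale in both groups. The order of TPM2 and TPM1 (18.3% and 16.3%) in SCR depends on it as well. TPM1 went from 11.6% and 11.1% in SCR to 10.0% and 9.97% in siTLN1, and TPM3 from 4.76% and 4.38% to 4.08% and 4.29%. The TPM4 share lay higher, and the TPM1 and TPM3 shares lower, in both siTLN1 libraries. The shares of ROCK1 (44.9% and 44.7%), TAGLN (26.2% and 27.8%) and MYL9 (54.5% and 53.5%) in their families overlapped between the groups. With 2 libraries against 2, an exact permutation test of a share cannot give a p below 0.333, so no share difference was tested.

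**Figure D4:**
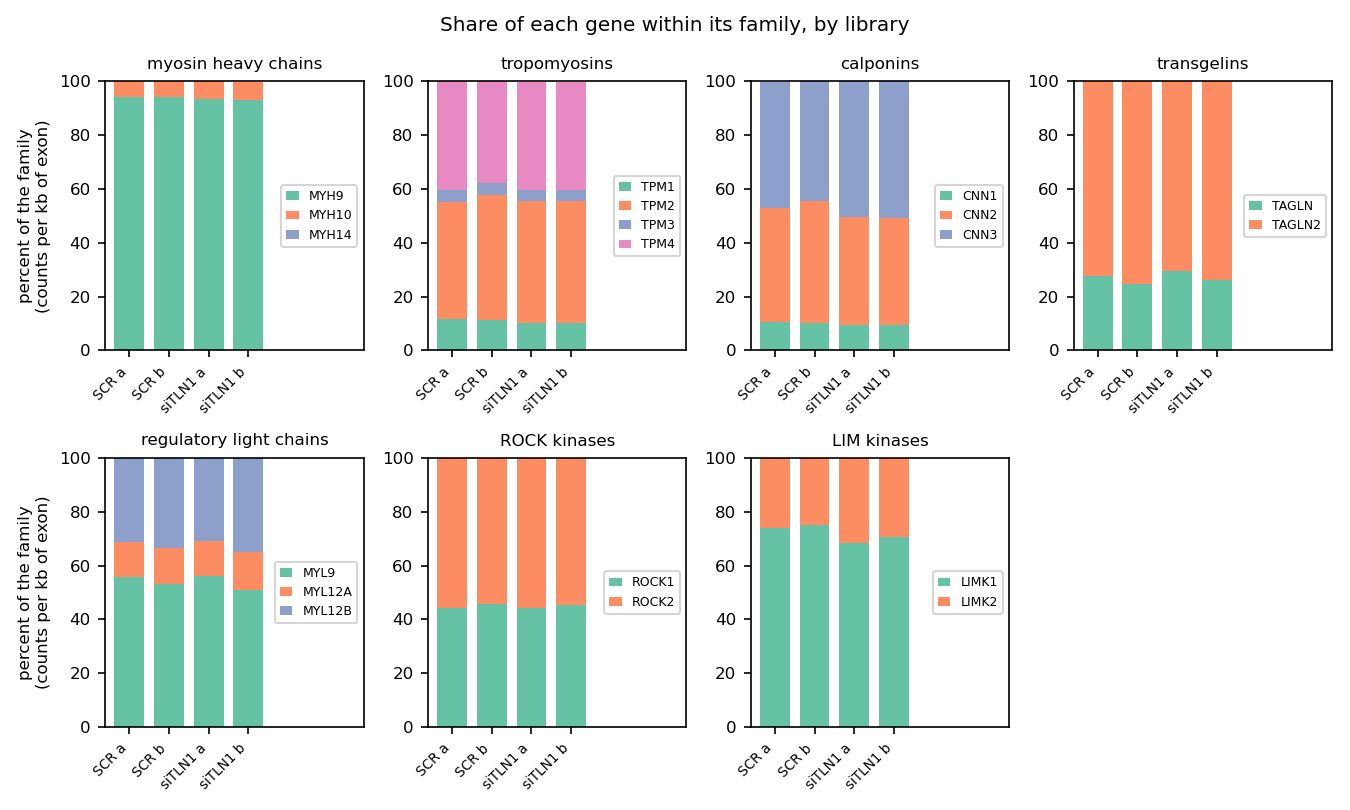
Stacked bars give the percent of each gene within its family, from counts per kilobase of annotated exon, in each of the 4 libraries (no error bars, since each bar is 1 library). The MYH10, LIMK2 and CNN3 segments are larger in both siTLN1 bars, while the ROCK and regulatory light chain families show no separation.

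Libraries a and b were also compared within each group. In 28 of 38 members (73.7%) the difference between a and b had the same sign in SCR and in siTLN1, against 63.5% of all tested genes. For 24 of 38 (63.2%), against 42.0% of all tested genes, the mean of that a-to-b difference was larger in size than the difference between groups. The a-to-b mean itself had a median size of 0.099 among the members, under the 0.12 of all tested genes. The difference between groups had a median size of 0.081 among the members and 0.159 among all tested genes. ROCK2, ROCK1, MRTFB and MYLK were higher in both a libraries, and MYL6 and MYL12B were higher in both b libraries. Compared within libraries a and within libraries b, the log2 difference between siTLN1 and SCR was 0.33 and 0.22 for LIMK2, 0.29 and 0.19 for MYH10, 0.27 and 0.21 for PPP1R12A, 0.17 and 0.26 for CNN3 and −0.25 and −0.20 for TPM1. The sign was the same in both comparisons for these 5 genes and for 28 of the 38 members, against 69.9% of all tested genes. What the numbers contribute to these differences was not tested.

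**Figure D5:**
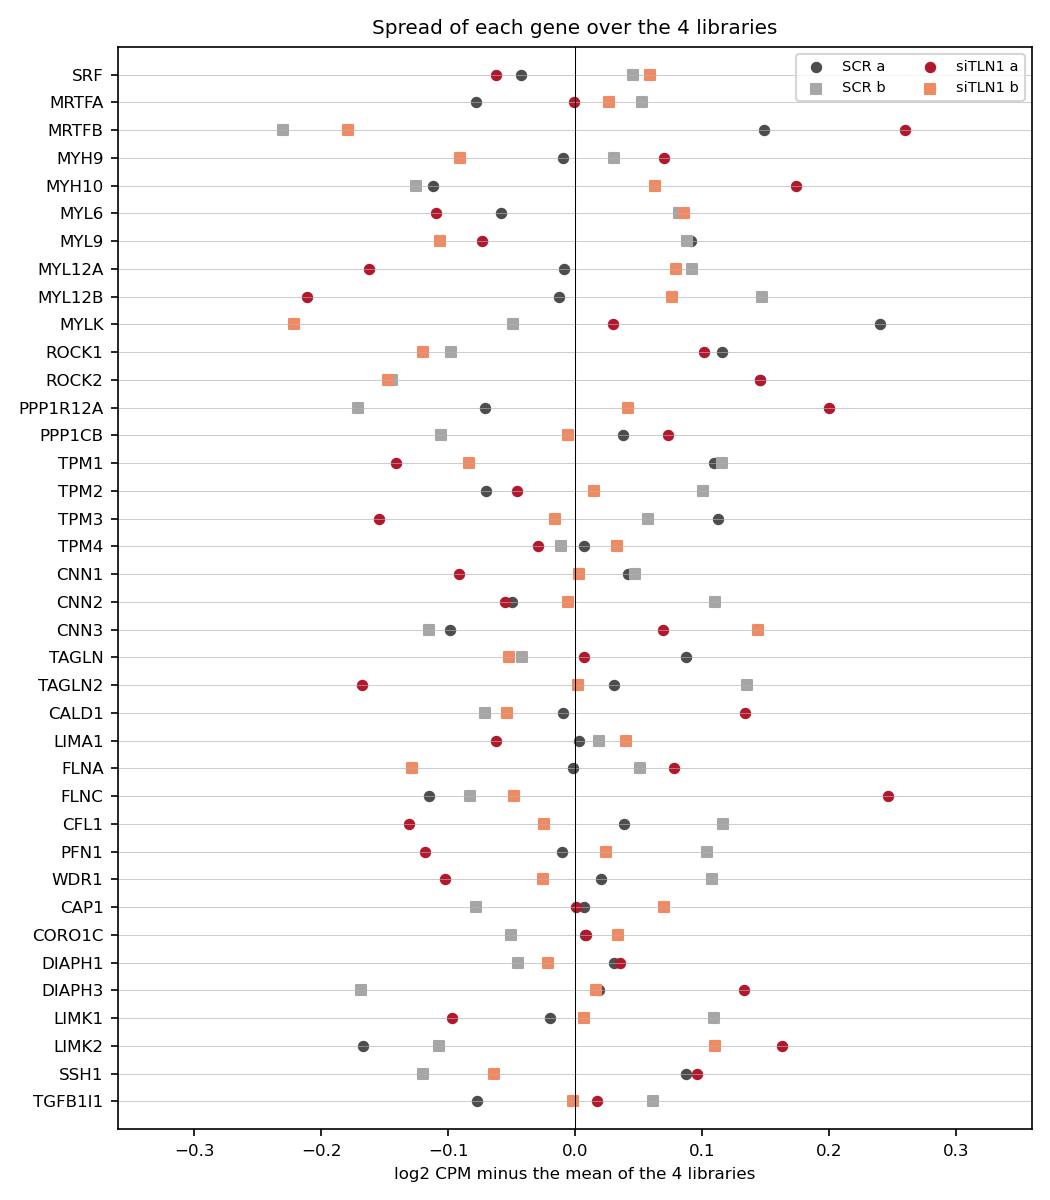
Log2 CPM of each gene in each library minus its mean over the 4 libraries; circles are libraries a, squares libraries b, grey for SCR and red or orange for siTLN1. For ROCK1, ROCK2 and MRTFB the circles and squares separate more than the colours, whereas for LIMK2, MYH10 and TPM1 the colours separate.

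Genes of the same pathway outside the set were read from 3 lists that hold 116 different genes, of which 110 were tested. They gave 6 calls at an adjusted p under 0.05 (2 higher and 4 lower in siTLN1), and the median log2 fold change over the 110 genes was −0.038. The shares to read these against are the 6.07% of all tested genes called and their median of 0.0033. Among 39 tested genes of other SRF-MRTF targets (median −0.023), 2 rose and 2 fell. ACTG1, which encodes gamma-actin, fell by 1.34 on the log2 scale from 3753 and 4035 CPM to 1421 and 1652 CPM (adjusted p 3.28e-06), while ACTB, which encodes beta-actin, had 7929 and 8619 CPM against 8586 and 9098 CPM (log2 fold change 0.096, adjusted p 0.728). The fall of ACTG1 was the largest in size among the called genes of the 3 lists, although reads that fit near-identical actin genes or pseudogenes as well would be left out, so its level is uncertain. CSRP1, a LIM protein of the actin cytoskeleton, fell by 0.64 from 264 and 277 CPM to 168 and 180 CPM (adjusted p 0.000474). ANKRD1, a mechanically responsive cofactor, rose by 0.68 from 9.50 and 9.59 CPM to 14.97 and 15.7 CPM (adjusted p 0.00205). TUFT1 rose by 0.46, from 22.6 and 25.3 CPM to 32.6 and 33.3 CPM (adjusted p 0.0131), and did not pass without SCR library a (adjusted p 0.0607), siTLN1 library a (0.0982) or siTLN1 library b (0.0646).

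The other lists held 1 call each. Among 24 tested myosin II regulators and subunits outside the set (median −0.035), DAPK2, a kinase that can phosphorylate the light chain, fell by 0.96 from 2.14 and 1.81 CPM to 1.21 and 0.851 CPM (adjusted p 0.0356). DAPK2 did not pass without a filter on low counts (adjusted p 0.0629), by DESeq2 (0.136) or without SCR library a (0.114), siTLN1 library a (0.058) or siTLN1 library b (0.254). Among 48 tested genes of actin assembly and turnover (median −0.058), CORO2B, a coronin, fell by 0.91 from 21.9 and 24.3 CPM to 12.7 and 11.9 CPM (adjusted p 0.000118).

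The 7-base word GACAACA, found earlier in these same data to go with lower fold changes when it lies in a 3′ UTR, was searched in the 3′ UTRs of GENCODE 29 protein-coding transcripts. It occurred in 3 of the 38 tested members (7.89%), namely LIMK2, PPP1CB and SSH1, against 9.94% of tested protein-coding genes, and those 3 members had log2 fold changes of 0.27, 0.067 and 0.030. Over all tested protein-coding genes, the median log2 fold change was −0.082 with the word and 0.014 without it. ACTG1 and CSRP1 hold the word in a 3′ UTR (5 of 11 and 2 of 8 transcripts) and CORO2B in its coding sequence. Of the other called list genes, DAPK2 (lower), ANKRD1 and TUFT1 (both higher) hold it in neither. Tested members with the word in coding sequence were SRF, MRTFB, MYH9, ROCK2, LIMA1, FLNA and FLNC. Their log2 fold changes ran from −0.047 (FLNA) to 0.21 (FLNC). The part of the word in these values was not tested.

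Counting used no strand option, so reads of genes on opposite strands that share exon bases cannot be told apart. Opposite-strand exons of other genes covered 34.1% of the exon bases of TAGLN (with a further 38.1% shared with a gene on the same strand), 31.2% of CAP1, 24.1% of TPM1, 19.0% of CFL1 and 16.4% of MYL6. It was under 10% for each of the other members. Pseudogenes that carry a member's name with a P suffix held 3.24% as many counts as the gene itself for TPM3 and under 1% for each of the other members. The levels of TAGLN, CAP1, TPM1, TPM3, CFL1 and MYL6 are therefore less certain than those of MYH10, LIMK2 or CNN3.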

How the data were processed

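Per the file headers, the authors used featureCounts 2.0.0 with its paired-end option and GENCODE 33 to make the deposited raw counts, and set no strand or multi-mapping option. The submitters' processing notes also name STAR 2.7.9a and edgeR 3.34.1. The same deposited table lists the summed exon length of each gene in bases. The authors' deposited log2 CPM table carries the replicate numbers of the labels, and how it was made is not given in the sources used here. Count columns were mapped to groups by name only, and 0 columns were left unmapped.

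Counts were filtered with filterByExpr (minimum count 10, minimum total 15), scaled by TMM and fitted over all genes with edgeR 4.0.16 (R 4.3.3; estimateDisp, robust glmQLFit, glmQLFTest), with Benjamini-Hochberg adjustment and a threshold of 0.05. The 95% intervals come from the quasi-likelihood standard error. Values per library are CPM, and differences within libraries a or b use log2(CPM + 0.1). Alternatives used RLE scaling, total counts, other filters, DESeq2 1.42.0, limma 3.58.1 (voom, and trend on the deposited log2 CPM values, with and without a replicate block) and each library left out in turn. The fits were also run on simulated data that gave all genes the same spread and no difference between libraries a and b beyond size. No result here rests on that run.

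Members and lists were chosen with earlier results of these data known. All members are described, those with the smallest p in most detail, and from each list up to 3 called genes by smallest p, to which TUFT1 was added after its values were seen because it completes the count of 4. Tables used Python 3.11.15 and pandas 2.3.3. Some genes of the lists are not reported here.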

Additional observations from a re-analysis of the deposited data

How the results depend on the processing

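No member passed the adjusted threshold under RLE scaling, total counts, no filter, a mean of at least 10 counts, DESeq2, limma-voom, limma-trend or with any library left out. The labels' replicate numbers are not stated to pair the samples, and same-numbered samples' deviations from the group means had r = 0.19 over all genes and 0.54 over the 10487 genes of at least 5 CPM. With the replicate block in limma-trend, 10 of 38 members passed, against 3645 of all 16137 genes (22.6%). PPP1R12A, MYH10, LIMK2, CNN3 and FLNC were higher, and TPM1, MYLK, MYL9, TPM3 and TAGLN2 lower. In that fit the lists gave 18 calls among 39 tested other SRF-MRTF targets and 5 among 24 other myosin II regulators. They gave 16 among 48 other actin assembly genes, and 39 among 110 tested genes in all. All genes called were 980 in the reported fit, 1253 by total counts, 663 without a filter, 847 by DESeq2 and 324 without siTLN1 library a.

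The members' median log2 fold change was −0.0069 without a filter and ran from −0.039 (without SCR library a) to 0.00033 (without siTLN1 library b) with each library left out (in which case the lone library of an arm is assumed to vary like the other group). Other myosin II regulators gave 2 calls by total counts, 0 without a filter, 0 by DESeq2 and 0 to 2 with libraries left out (2 without SCR library b, 0 without each of the others). Other actin assembly genes gave 1 to 4 (4 without SCR library a), and all lists together 5 to 10 (10 without SCR library a), with libraries left out. Without a filter, SRF was at 0.011 and ROCK2 at 0.0096. Signs also changed with a library left out, over these ranges: SRF −0.061 to 0.059, MRTFA −0.039 to 0.092, MRTFB −0.15 to 0.29, MYH9 −0.099 to 0.063, MYL6 −0.12 to 0.074, MYL12A −0.20 to 0.040, MYL12B −0.28 to 0.0092, ROCK1 −0.13 to 0.093, ROCK2 −0.15 to 0.15, PPP1CB −0.0021 to 0.14, TPM2 −0.12 to 0.056, TPM4 −0.024 to 0.038, CNN2 −0.14 to 0.020, TAGLN −0.11 to 0.020, CALD1 −0.011 to 0.18, LIMA1 −0.069 to 0.032, FLNA −0.15 to 0.057, DIAPH1 −0.022 to 0.052, SSH1 −0.069 to 0.14 and TGFB1I1 −0.053 to 0.087. Members that kept their sign but moved by over 1.5 times were MYLK (−0.33 to −0.041), TPM3 (−0.24 to −0.099), CNN1 (−0.13 to −0.039), TAGLN2 (−0.25 to −0.079), FLNC (0.053 to 0.35), CFL1 (−0.20 to −0.0997), PFN1 (−0.16 to −0.021), WDR1 (−0.17 to −0.083), CAP1 (0.030 to 0.11), CORO1C (0.015 to 0.072), DIAPH3 (0.058 to 0.24) and LIMK1 (−0.15 to −0.022). The cause of these shifts was not tested.

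Without division by length, the mean family shares in SCR and siTLN1 were 18.3% and 16.3% for TPM1, 9.30% and 8.43% for CNN1, and 48.2% and 50.3% for TAGLN. They were 59.3% and 58.2% for MYL9, 47.0% and 46.7% for ROCK1, and 77.0% and 72.2% for LIMK1. The TAGLN shares overlapped between groups. TAGLN led in both a libraries (50.3% in SCR, 52.3% in siTLN1) and TAGLN2 in both b libraries (53.8% in SCR, 51.7% in siTLN1). With 2 libraries per group, the intervals rest on the spread shared across genes. MYH14 alone among the members had too few counts to be tested.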
